A study of Xenopus laevis with 8 samples.

Results

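The agr2 genes of *Xenopus laevis* are the subject here. The array held 1 probe set for agr2.L and 1 for agr2.S, the copies on the long and the short chromosomes of this allotetraploid frog, so the members were 2 of 11303 genes that had a probe set of their own among 32635 probe sets in all. Members were the probe sets whose only listed gene was 1 of these copies, and both passed the filter on low values. The copies were chosen by the values of the injected against the uninjected sides of double morphants, where their signal was far lower, so every value of that contrast is given below as a description, with no test.

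The study asked which transcripts depend on a pair of histone methyltransferases, xSuv4-20h1 and xSuv4-20h2, which take monomethylated lysine 20 of histone H4 to the di- and trimethylated states. Embryos were injected on 1 side, grown to the neurula stage and cut along the midline, and several sides were pooled per sample. Control morphants carried the standard control Morpholino, an antisense molecule with no intended target. Double morphants carried translation-blocking Morpholinos against both enzymes, and the uninjected sides served as the internal reference in both kinds of embryo. The 4 groups held 2 arrays each, and the 2 replicates were independent experiments shared by all 4 groups. The labels give a total dose of 40 ng in a pair of neighbouring blastomeres, whereas the methods for these samples describe a higher dose in a single blastomere at the 2-cell stage, and the files do not settle which applied. Morpholinos act on translation, so the mRNA levels of their targets are no measure of the depletion.

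The cement gland is a mucus-secreting organ at the front of the frog embryo, by which the hatched larva attaches to surfaces. It forms from ectoderm just anterior to the neural plate, across the midline, at an intermediate level of BMP signalling, and the homeodomain factors Otx2 and Pitx1 can switch on its genes. The protein encoded by agr2 is a secretory-pathway member of the protein disulfide isomerase family. Its mammalian counterpart works in the endoplasmic reticulum of mucus-producing cells, where it is needed for the folding of mucins.

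The values are GCRMA expression values on the log2 scale, so a difference of 1 is a factor of 2 in signal, and the lowest value in the data is 2.14. The array medians lay between 5.09 and 5.19. In the 4 groups the arrays deviated from their group means together by experiment, with correlations across probe sets of 0.48 to 0.80 between same-numbered arrays, and replicate 2 differed from replicate 1 in 28.6% of 10805 tested probe sets (limma with the experiment as a term, adjusted p under 0.05). All 9 other genes of the cement gland list that the array measured also passed the filter. The filter asks for a mean of at least 4 in at least 1 group, so passing it does not show cement gland cells. The samples were whole sides of embryos, so fewer cement gland cells and less RNA per cell cannot be told apart.

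agr2.L had values of 12.60 and 12.26 on the uninjected sides of double morphants and of 9.38 and 10.02 on their injected sides. In control morphants its values were 12 and 11.32 on the uninjected sides and 11.37 and 10.45 on the injected sides. The injected sides of double morphants were thus the lowest of the 4 groups and their uninjected sides the highest, while the sides of control morphants overlapped between the experiments.

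agr2.S had values of 12.32 and 12.19 on the uninjected sides of double morphants and of 8.21 and 9.32 on their injected sides. In control morphants the values were 11.65 and 11.07 on the uninjected sides and 10.93 and 10.65 on the injected sides. No group overlapped another for this copy, and the order of the group means was that of agr2.L, an order that 8.08% of all probe sets shared. Between the sides within a kind of embryo, and between the kinds within a side, 12.6% to 23.5% of all probe sets were apart in the directions seen here. How many had all 4 groups apart was not counted.

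**Figure D1:**
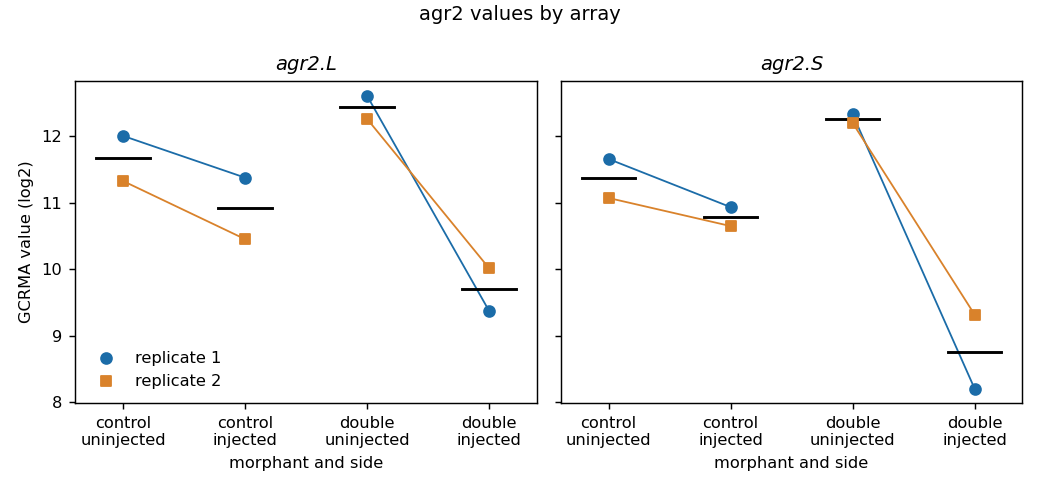
GCRMA values (log2, vertical axis) of agr2.L and agr2.S in the 4 groups (horizontal axis). Points are arrays, coloured by replicate, lines join the 2 sides matched by replicate number and black bars are group means. For agr2.S the lines of double morphants drop from 12.32 to 8.21 and from 12.19 to 9.32, and those of control morphants from 11.65 to 10.93 and from 11.07 to 10.65.

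In double morphants the injected sides lay below the uninjected sides by a mean log2 difference of -2.73 for agr2.L (standard error 0.41, from the spread pooled over the 4 groups of 2 arrays) and of -3.50 for agr2.S (standard error 0.39). In linear terms 15.0% of the signal remained for agr2.L and 8.86% for agr2.S. Both copies were lower on both injected arrays, which was also true of 23.5% of all probe sets, and 2.38% were lower by at least 1 log2 in both pairs of sides as the copies did. Among 10805 probe sets, agr2.S had the 5th and agr2.L the 22nd most negative difference. These figures describe the contrast by which the copies were picked.

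The size of the drop differed between the experiments. In replicate 1 the injected side kept 10.7% of the agr2.L signal and 5.76% of the agr2.S signal, against 21.1% and 13.6% in replicate 2. The gap came mostly from the injected sides, whose values were higher in replicate 2 than in replicate 1 by 0.64 for agr2.L and by 1.11 for agr2.S. On the uninjected sides of double morphants, agr2.L changed by -0.35 and agr2.S by -0.13 between the same experiments, and in control morphants all 4 differences were negative, from -0.92 to -0.28. A rise on the injected sides of double morphants beside a fall in the other 3 groups was seen in 3.18% of all probe sets, a pattern looked up after these values were seen. Over all 8 arrays the experiments differed by -0.33 for agr2.L (standard error 0.26, adjusted p = 0.376) and by 0.03 for agr2.S (standard error 0.28, adjusted p = 0.951) in limma with the experiment as a term, and neither passed the test.

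Control morphants tell what the injection of an unrelated Morpholino goes along with, and their differences come from arrays that played no part in picking the copies. There the injected sides differed from the uninjected sides by -0.63 and -0.87 log2 for agr2.L and by -0.72 and -0.42 for agr2.S in replicates 1 and 2. All 4 pairs thus pointed downward, and for agr2.S both injected arrays lay below both uninjected ones, as in 12.9% of all probe sets, but the mean differences did not pass the test. For agr2.L the log2 difference was -0.75 (standard error 0.41, 95% interval -1.75 to 0.25, adjusted p = 1 in limma), and for agr2.S it was -0.57 (standard error 0.39, 95% interval -1.53 to 0.39, adjusted p = 1 in limma). The intervals thus include no change as well as a loss of more than 1 log2, and neither copy passed an unadjusted p of 0.05 there. This fit does not pair the sides of the same embryos, so differences between the experiments count as spread in the intervals. That spread is pooled over the 4 groups, so the double morphant arrays that picked the copies also help set the intervals and p-values. For agr2.S the standard deviation was 0.79 on injected and 0.09 on uninjected sides of double morphants, against 0.20 and 0.41 in control morphants. With sides blocked by pair, adjusted p was 0.264 for agr2.L and 0.400 for agr2.S in limma. The blocked fit also pools both kinds of embryo. In double morphants the drop differed between the experiments by 0.99 for agr2.L and 1.24 for agr2.S. Of all probe sets tested, 4.16% had a difference as low as that of agr2.L and 6.25% as low as that of agr2.S. In this contrast no probe set passed an adjusted p under 0.05 in control morphants (0%; limma), while 305 were lower (2.82%) and 264 higher (2.44%) at an unadjusted p under 0.05. At the study's own threshold as rewritten here, a local false discovery rate under 0.2, agr2.L was called lower (local fdr 0.137) and agr2.S was not (local fdr 0.295). This threshold called 6.66% of all probe sets lower, more than the unadjusted p did, and agr2.L had an unadjusted p = 0.118 in limma. A local fdr call in control morphants is thus no stricter than an unadjusted p under 0.05.

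Subtracting the effect in control morphants left a log2 difference of -1.98 for agr2.L (standard error 0.58) and of -2.92 for agr2.S (standard error 0.56). This difference contains the contrast that picked the copies and was not tested for them.

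The groups can also be set side by side within 1 side of the embryo. On the injected sides, double morphants differed from control morphants by -2.0 and -0.44 log2 for agr2.L and by -2.72 and -1.33 log2 for agr2.S in replicates 1 and 2. The mean differences were -1.22 (standard error 0.41) and -2.03 (standard error 0.39). On the uninjected sides the direction was turned: double morphants lay above control morphants by 0.60 and 0.93 log2 for agr2.L and by 0.67 and 1.13 log2 for agr2.S. Here the means were 0.77 (standard error 0.41) and 0.90 (standard error 0.39), and no arrays overlapped for either copy, as for 12.6% of all probe sets in this direction. In the ranking of these differences among all probe sets, agr2.L stood at the 98.1 and agr2.S at the 98.7 percentile. Measured against the injected sides of control morphants, 43.0% of the agr2.L and 24.5% of the agr2.S signal remained. Both comparisons use arrays of double morphants that picked the copies and were not tested.

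The 2 copies ran closely in parallel. Over the 8 arrays their values correlated with Pearson's r = 0.97 and Spearman's rho = 0.98, a description over arrays that share experiments and groups. Their deviations from the group means correlated with r = 0.81. The exception in size was again the injected sides of double morphants, where agr2.L minus agr2.S was 1.17 and 0.70, against -0.20 to 0.44 on the other 6 arrays. The probe sequences were not used here, so how far each probe set also detects the other copy was not tested.

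Other genes of the cement gland were then read in the same arrays. The list held relatives and regulators of agr2 and was made with earlier results of these data known. Of its 9 measured genes (each by its most variable probe set), none passed an adjusted p under 0.05 in the injected against uninjected sides of double morphants in limma, and no probe set on the array did (0%). At an unadjusted p under 0.05, 3 of the 9 genes were lower and 2 higher, against 9.11% lower and 11.6% higher of all probe sets. The median log2 difference of the 9 genes was -0.26, and that of all probe sets was 0.03. In control morphants these medians were -0.47 and 0.04, and for the effect in double minus control morphants 0.21 and 0.02. On the log2 scale the summed level of the 9 genes was 13.86 to 14.20 on the uninjected and 13.38 to 13.53 on the injected sides of double morphants. In control morphants it was 13.50 to 13.98 and 13.11 to 13.38, so the sum was lower on the injected sides of both kinds of embryo. The sum weighs genes by their linear signal and is mostly that of ag1.L, so it does not describe the list as a whole. With sides blocked by pair, matched by replicate number as sides of the same embryos, 3 genes fell (ag1.L, ag1.S and xa-1.L) and 2 rose (crx.L and crx.S). Of all probe sets, 11.2% fell and 14.3% rose. At a local fdr under 0.2 none of the 9 was called in double morphants. In control morphants 5 were called lower at that threshold (ag1.L, ag1.S, otx2.L, otx2.S and xa-1.L), beside 6.66% of all probe sets.

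ag1 encodes another secreted anterior gradient protein of the cement gland, close in sequence family to agr2. The most variable ag1.S probe set had values of 12.08 and 11.51 on the uninjected sides of double morphants and of 9.97 and 9.32 on the injected sides. In control morphants it had 11.63 and 10.51 on the uninjected and 10.71 and 9.61 on the injected sides. It was thus lower on the injected side of every pair, and its drop hardly varied between experiments, with log2 differences of -2.11 and -2.18 in double morphants and of -0.92 and -0.90 in control morphants. The mean in double morphants was -2.15 (standard error 0.53, adjusted p = 0.114 in limma, adjusted p = 0.0180 with sides blocked by pair). The second probe set of ag1.S gave -2.12 (standard error 0.45, adjusted p = 0.0930 in limma, adjusted p = 0.0180 with the block). The difference between the effects in double and control morphants was -1.23 for the first and -1.31 for the second probe set (adjusted p = 0.121 for both probe sets with the block), which did not pass the test.

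ag1.L did not follow its partner copy in size. Its values were 13.35 and 13.03 on the uninjected and 12.85 and 12.56 on the injected sides of double morphants, and 13.14 and 12.59 on the uninjected and 12.65 and 12.14 on the injected sides of control morphants. The mean log2 difference was -0.49 in double morphants (standard error 0.28, adjusted p = 0.384 in limma, adjusted p = 0.0323 with sides blocked by pair) and -0.47 in control morphants. These effects differed by -0.02 (standard error 0.40), so the sides of ag1.L were about equally far apart in both kinds of embryo, within this error.

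xa-1.L, an early marker of anterior ectoderm that includes the cement gland, had the most negative difference of the list. Its values were 8.70 and 8.94 on the uninjected and 5.77 and 3.94 on the injected sides of double morphants. In control morphants they were 8.60 and 7.17 on the uninjected and 6.57 and 4.57 on the injected sides. The injected side was lower in all 4 pairs, by -3.96 in double morphants (standard error 0.89, adjusted p = 0.101 in limma, adjusted p = 0.0198 with sides blocked by pair) and by -2.31 in control morphants (standard error 0.89, adjusted p = 0.901 in limma, local fdr 0.0145). The difference between the 2 effects was -1.65 (standard error 1.26). For this gene the control morphants already held a difference past an unadjusted p of 0.05, which neither copy of agr2 did. That difference uses control arrays only, while its standard error rests on the spread pooled over the 4 groups.

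**Figure D2:**
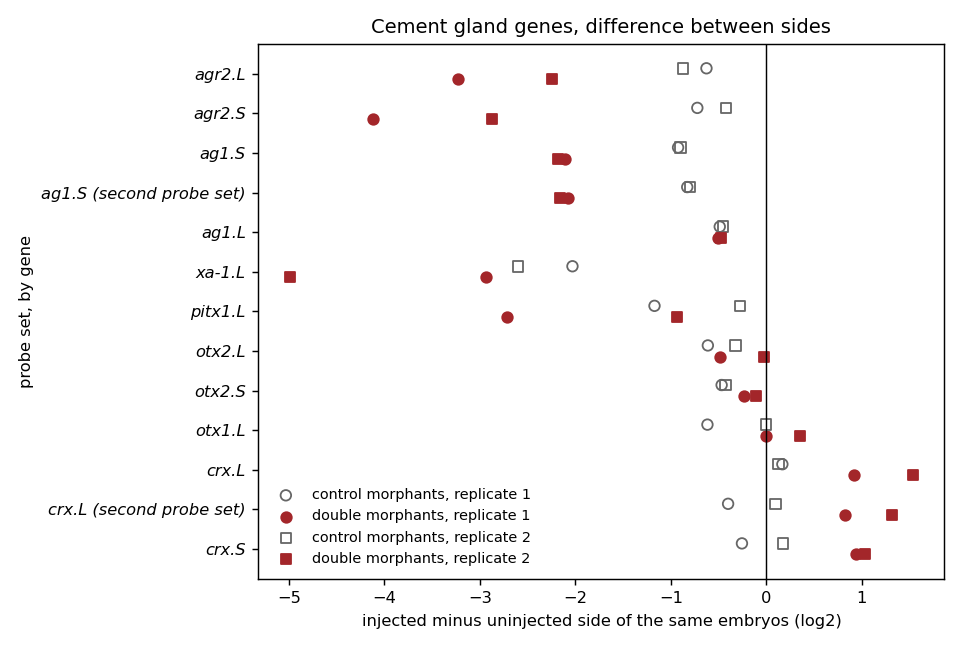
Difference between the injected and the uninjected side, matched by replicate number (log2, horizontal axis), for each probe set of the cement gland genes (vertical axis). Control morphants are open and double morphants filled, with circles for replicate 1 and squares for replicate 2. agr2.S lies at -4.12 and -2.88 in double morphants, ag1.S at -2.11 and -2.18, ag1.L at -0.50 and -0.47, and the plotted crx probe sets between 0.82 and 1.54.

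Of the regulators, pitx1.L, a homeodomain factor that can drive cement gland formation, had values of 8.21 and 6.68 on the uninjected and 5.50 and 5.75 on the injected sides of double morphants. Its log2 difference was -1.83 (standard error 0.51, adjusted p = 0.136 in limma, adjusted p = 0.0584 with sides blocked by pair and 0.0433 with the experiment as a block), and it varied from -2.72 in the first to -0.94 in the second experiment. In control morphants it was -0.72 (standard error 0.51). A second pitx1 probe set is listed under more than 1 symbol and was left out.

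otx2, the head homeodomain gene that stands above the cement gland genes, differed little between the sides of double morphants, by -0.26 for otx2.L (standard error 0.20) and by -0.17 for otx2.S (standard error 0.14). In control morphants the differences were -0.47 (standard error 0.20, adjusted p = 0.991 in limma) and -0.45 (standard error 0.14, adjusted p = 0.888 in limma). At the threshold of the study as rewritten here, both were called lower in control morphants (local fdr 0.0357 for otx2.L and 7.1e-04 for otx2.S). That threshold called 6.66% of all probe sets lower there, where none passed an adjusted p under 0.05 in limma. The effects in the 2 kinds of embryo were not told apart by the test of their difference (adjusted p = 0.977 for otx2.L and 0.888 for otx2.S in limma). otx1.L differed by 0.18 (standard error 0.21) in double morphants. The related factor crx, known in the frog as Otx5 and present in the cement gland and later in the eye, went the other way. crx.S had 9.05 and 9.34 on the uninjected and 9.99 and 10.38 on the injected sides of double morphants, a log2 difference of 0.99 (standard error 0.36, adjusted p = 0.204 in limma, adjusted p = 0.0211 with sides blocked by pair). crx.L rose by 1.23 with that block (adjusted p = 0.0213), from 5.90 and 5.82 to 6.81 and 7.36, and did not pass without it (adjusted p = 0.177 in limma). A second probe set of crx.L differed by 1.07 (adjusted p = 0.175 in limma, adjusted p = 0.0287 with sides blocked by pair), and a second probe set of crx.S was near the lowest value on all arrays.

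Signals that place the cement gland along the head and the BMP gradient gave no call among 26 tested genes in double morphants (limma, adjusted p under 0.05). No probe set of any kind passed in that fit (0%). Of the 26 genes, 2 were higher and none lower at an unadjusted p under 0.05, against 11.6% higher and 9.11% lower of all probe sets. The median log2 difference of the list was -0.20 in double and 0.34 in control morphants. The BMP ligand gene bmp7.2.L had the largest difference, 1.92 (standard error 0.50), and adjusted p = 0.121. With sides blocked by pair it rose (adjusted p = 0.0190) and was the only gene of the list that passed. With the experiment as a block, bmp7.2.L and cer1.S passed as higher (adjusted p = 0.0434 and 0.0433 in limma) and frzb.L as lower (adjusted p = 0.0437). The partner copy frzb.S did not pass with it (adjusted p = 0.499 in limma). That block called 9.19% of all probe sets lower and 11.2% higher. In control morphants bmp7.2.L differed by 1.46 (adjusted p = 0.895 in limma). The BMP and Activin antagonist gene fst.L had the lowest difference, -1.22 (standard error 1.05).

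The 23 tested genes of the anterior neural plate and the placode border neighbour the cement gland in the embryo. Their median log2 difference was -0.30 in double morphants and -0.24 in control morphants. In double morphants none passed an adjusted p under 0.05 in limma without a block, and neither did any other probe set (0%). At an unadjusted p under 0.05, 6 were lower and 2 higher, against 9.11% lower and 11.6% higher of all probe sets. At a local fdr under 0.2, nkx2-1.L and nkx2-4.S were called lower, as were 1.01% of all probe sets. In control morphants that threshold called 7 of the 23 genes lower and 1 higher, against 6.66% and 2.31% of all probe sets. The lowest difference there was that of rax.L, -1.48. For the effect in double minus control morphants, no gene of the list and no probe set passed with sides blocked by pair. In double morphants, 5 of the 23 genes fell and 3 rose with that block, where 11.2% of all probe sets fell and 14.3% rose. Those that fell were nkx2-1.L, nkx2-4.S, ptgds.S, rax.L and six6.L, forebrain and eye field genes but for the prostaglandin synthase gene ptgds.S, and those that rose were foxi2.L, foxi2.S and pax3.L. With the experiment as a block, foxi2.L and foxi2.S did not pass (adjusted p = 0.0595 and 0.0715 in limma), while six3.L and snai2.L passed as lower (adjusted p = 0.0479 and 0.0401). The partner copy snai2.S did not pass with it (adjusted p = 0.171 in limma). The eye field gene six6.L had the lowest value, -2.79 (standard error 1.36), but its arrays varied widely, with 8.51 and 6.71 on the uninjected and 5.42 and 4.23 on the injected sides (adjusted p = 0.316 in limma, adjusted p = 0.0190 with sides blocked by pair). The neural border gene pax3.L had the highest, 1.15 (standard error 0.25, adjusted p = 0.0941 in limma, adjusted p = 0.0194 with the block). The other tested probe sets of pax3.L did not pass with the block (adjusted p = 0.0696 to 0.104 in limma), nor did those of pax3.S (0.0625 and 0.0684). A second probe set of rax.L did not pass either (adjusted p = 0.0621 in limma with the block).

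The molecular relatives and partners of agr2 were looked at next. The protein disulfide isomerase family forms and rearranges disulfide bonds in secretory proteins. Of its 18 tested genes, 2 were lower and 2 higher at an unadjusted p under 0.05 in double morphants. The shares of all probe sets were 9.11% lower and 11.6% higher. None of the 18 genes passed an adjusted p under 0.05 in limma, and neither did any other probe set (0%). Their median log2 difference was -0.06. With sides blocked by pair, casq2.S, tmx2.S and txndc12.S fell and pdia6.S, tmx1.L and tmx4.L rose, shares near the 11.2% lower and 14.3% higher of all probe sets. tmx1.L did not pass with the experiment as a block (adjusted p = 0.0577 in limma), and its other probe set passed with neither block. txndc12 belongs with agr2 to the anterior gradient branch of this family. In control morphants txndc12.S had the lowest difference of the list, -1.31. Its effects in double and control morphants were not told apart with sides blocked by pair (adjusted p = 0.345 in limma). Neither tested probe set of txndc12.L passed with that block in double morphants (adjusted p = 0.0909 and 0.0770 in limma). In double morphants the lowest value was that of casq2.S, a calcium-storing protein of muscle with thioredoxin-like folds, at -2.21 (standard error 0.74). The highest was that of the membrane-bound family member tmx4.L, at 0.81 (standard error 0.25).

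Of 45 tested genes of protein entry, folding and stress in the endoplasmic reticulum, 4 were lower and 2 higher at an unadjusted p under 0.05 in double morphants. The shares of all probe sets were 9.11% lower and 11.6% higher. None of the 45 genes passed an adjusted p under 0.05 in limma, where no other probe set passed either (0%), and their median was 0.02. With sides blocked by pair, ern2.S, sec62.L and ssr4.L fell, and the chaperone genes dnajb11.S and hyou1.S rose, a smaller share of the list than the 11.2% and 14.3% of all probe sets. The lowest difference was in ern2.S, whose mammalian counterpart is the IRE1 stress sensor of mucus-producing epithelia. Its values were 5.93 and 5.42 on the uninjected and 3.63 and 3.74 on the injected sides of double morphants, and 5.0 and 4.10 on the uninjected and 4.07 and 3.66 on the injected sides of control morphants. The log2 difference was -1.99 in double morphants (standard error 0.35, adjusted p = 0.0818 in limma, adjusted p = 0.0190 with sides blocked by pair) and -0.68 in control morphants. At the threshold of the study as rewritten here, ern2.S was called lower in both kinds of embryo (local fdr 0.108 and 0.0956), as were 1.01% and 6.66% of all probe sets. Its groups stood in the same order as those of agr2, an order that 8.08% of all probe sets shared. The highest difference was 0.67, in the luminal cochaperone gene dnajb11.S.

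Goblet cells and small secretory cells release mucus and signals elsewhere in the embryonic skin. Of 10 measured genes of goblet and small secretory cells, 6 were near the lowest value on all arrays and 4 were tested. The goblet cell lectin itln1.L had 14.05 and 13.88 on the uninjected and 12.49 and 12.58 on the injected sides of double morphants, a log2 difference of -1.43 (standard error 0.29, adjusted p = 0.0924 in limma, adjusted p = 0.0180 with sides blocked by pair). With that block 11.2% of all probe sets fell. The effects on itln1.L in double and control morphants differed by -0.80 and were not told apart (adjusted p = 0.130 in limma with that block). The transcription factor foxa1.L of small secretory cells had 10.01 and 9.33 on the uninjected and 10.01 and 9.42 on the injected sides. On the log2 scale the summed level of the 4 genes was 14.51 to 14.85 on the uninjected and 13.59 to 13.93 on the injected sides of double morphants, and 14.18 to 14.81 and 13.56 to 14.17 in control morphants. These sums were lower on the injected sides of both kinds of embryo, as the agr2 values were. Unlike agr2, the sums of the injected sides overlapped between double and control morphants. otogl2.L had the lowest difference of the list in control morphants, -0.75, and was higher by 0.47 on the injected sides of double than of control morphants. With the experiment as a block, itln1.L and a probe set of otogl2.L were lower in double morphants (adjusted p = 0.0210 and 0.0490 in limma). Of all probe sets, 9.19% were lower with that block. The other probe set of otogl2.L did not pass (adjusted p = 0.245 in limma). At a local fdr under 0.2, 2 of the 4 genes were called lower in control morphants, beside 6.66% of all probe sets. The part of these cells in the agr2 values was not tested.

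Markers of the bulk tissues were summed in the same way. The summed level of 21 epidermal genes was 17.06 to 17.32 on the uninjected and 16.87 to 17.16 on the injected sides of double morphants and 16.93 to 17.19 and 16.94 to 17.08 in control morphants, with grhl1.L highest (log2 difference 1.34) and krt18.3.L lowest (-0.52). For 12 neural genes it was 13.73 to 13.79 and 13.98 to 14.01 in double and 13.79 to 14.01 and 13.93 to 14.01 in control morphants, with zic1.S highest (1.07) and tubb3.L lowest (-2.04). For 12 genes of mesoderm and muscle it was 14.19 on both uninjected sides and 13.84 to 14.47 on the injected sides of double morphants, and 14.23 to 14.40 and 13.52 to 14.47 in control morphants, with vegt.L highest (1.79) and the cardiac actin gene actc1.L lowest (-1.05, standard error 0.94). On the injected sides of replicate 2, actc1.L had 11.35 in double and 10.62 in control morphants, against 13.07 to 13.34 on the other 6 arrays. The part of muscle in the agr2 values was not tested. Without that control array, the difference in control morphants was -0.29 for agr2.L and -0.43 for agr2.S, against -0.75 and -0.57 with it. Without that double morphant array, the difference in double morphants was -3.05 for agr2.L and -4.05 for agr2.S, against -2.73 and -3.50 with it.

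The genes whose values ran most like agr2 over the 8 arrays were not cement gland genes by name. The reference was the mean of agr2.L and agr2.S, and 82 of 8217 other genes (0.998%) reached r = 0.9 with it. The 10 nearest were zmcm3.L (r = 0.98), hnrnpr.S (0.98), polr3d.L (0.97), ptma.S (0.97), cebpz.L (0.97), mcm6.2.S (0.96), maff.S (0.96), flrt2.S (0.96), coasy.L (0.96) and asb9.L (0.96). zmcm3.L and mcm6.2.S encode subunits of the replicative helicase, hnrnpr.S an RNA-binding protein and polr3d.L a subunit of RNA polymerase III. Most of these genes moved by far less than agr2: cebpz.L differed by -0.28 (standard error 0.13) between the sides of double morphants, hnrnpr.S by -0.54 and zmcm3.L by -0.86. mcm6.2.S differed by -1.86 (standard error 0.21), from 10.17 and 10.30 to 8.39 and 8.36. asb9.L, an adaptor of a ubiquitin ligase, had the largest difference of the 10, -3.31 (standard error 0.73), from 6.63 and 6.39 to 2.77 and 3.62. Of the cement gland genes, the second probe set of ag1.S (r = 0.90), the first (0.86), pitx1.L (0.86) and xa-1.L (0.82) were nearest, while crx.S had r = -0.79. The 8 arrays share groups and experiments, so these correlations are a description, with no test.

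**Figure D3:**
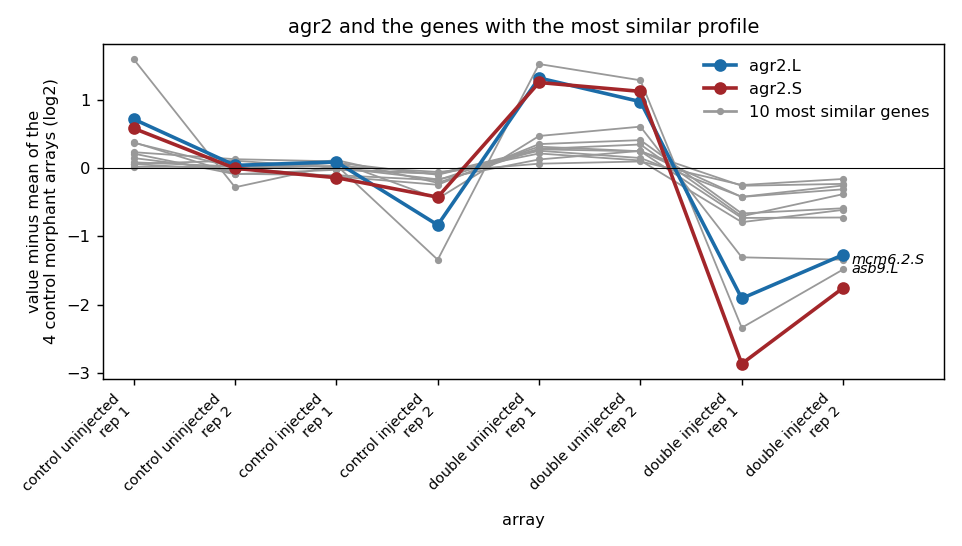
Values of agr2.L, agr2.S and the 10 genes with the most similar profile on each of the 8 arrays (horizontal axis), each less its mean over the 4 control morphant arrays (log2, vertical axis). All lines fall from the uninjected to the injected sides of double morphants, and asb9.L and mcm6.2.S come closest to the size of the agr2 drop.

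The genes beside agr2 on its chromosomes were read last. In the gene order of the RefSeq annotation, the 5 protein-coding genes on each side of agr2.L and of agr2.S were taken. Around agr2.L 3 of 10 neighbours were measured and 2 passed the filter, and around agr2.S 6 of 10 were measured and 4 passed. None of these passed the test in double morphants, with or without adjustment. Without adjustment 9.11% of all probe sets were lower and 11.6% higher, so these few genes cannot show that the neighbours were unchanged. The lowest adjusted p was 0.287 in limma, a fit in which no probe set passed (0%). With sides blocked by pair, adjusted p was 0.928 for tspan13.L, 0.105 for tspan13.S, and 0.685 and 0.735 for the probe sets of meox2.S in limma. The other tested neighbours, syf2.S among them, were not read in that fit. syf2.S was lower in both pairs of double morphants, by -0.27 and -0.56. Between the injected sides of double and control morphants, syf2.S differed by -0.72 and tspan13.S by 0.67 (unadjusted p = 0.0133 and 0.0108, adjusted p = 0.159 and 0.143 in limma). At an unadjusted p under 0.05, 9.16% of all probe sets were lower there and 8% higher. agr3.L, a relative of agr2 and the next gene on the other side of agr2.L, had no matched probe set. The tetraspanin gene tspan13, the next gene on 1 side of both copies, had log2 differences of 0.01 (standard error 0.20) for tspan13.L and of 0.40 (standard error 0.18) for tspan13.S between the sides of double morphants. tspan13.L had 10.33 and 10.52 on the uninjected and 10.41 and 10.47 on the injected sides, where agr2.L lost more than 2 log2. hdac9.S was the neighbour with the widest scatter, with a difference of 0.13 in replicate 1 and of -2.36 in replicate 2. ahr.L, ahr.S and sostdc1.S stayed near the lowest value on all arrays, so no change could be measured there.

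**Figure D4:**
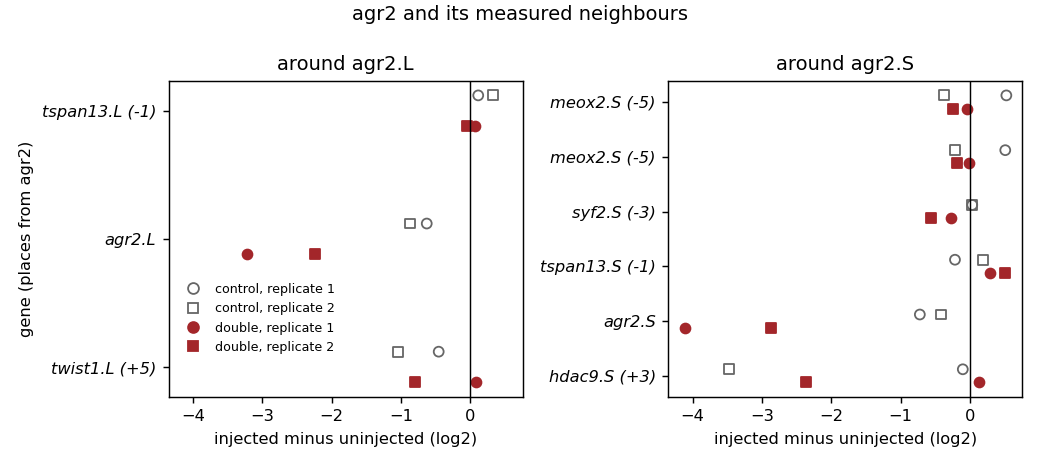
Difference between the injected and the uninjected side (log2, horizontal axis) for agr2.L (left) and agr2.S (right) and their measured neighbours, listed by their place in the gene order (vertical axis), in control (open) and double (filled) morphants, circles for replicate 1 and squares for replicate 2. tspan13.L and tspan13.S lie between -0.22 and 0.50 in all pairs, and hdac9.S reaches -3.48 in control replicate 2.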

How the data were processed

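RNA from 8 samples was hybridised to 1-colour Affymetrix arrays. Per the labels and the methods, the authors computed the deposited values with GCRMA, which corrects background by probe sequence, normalizes between arrays and summarizes probe sets on the log2 scale (version not given in the sources used here). Symbols came from the platform's annotation table: 15505 probe sets had 1 gene, 279 several and 16851 none, and 2 symbols were updated through RefSeq gene identifiers (Xenopus laevis version 10.1), which also gave the gene order. Array control probe sets were left out. The authors' filter by present calls was replaced by a variance over 0 and a mean of at least 4 in at least 1 group, which left 10805 probe sets of 8219 genes.

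A linear model with 4 group means was fitted in R 4.3.3 with limma 3.58.1 (4 residual degrees of freedom, prior 2.03), and p-values were adjusted by Benjamini-Hochberg over all 10805 probe sets. The study kept the most variable probe set per gene, which was done here for gene lists and run as an alternative for the tests. Its threshold, a local fdr under 0.2, was rewritten after the locfdr method, since the package was not at hand, and run as another. Further alternatives were the filter, the scaling, the variance trend, a floor, blocks and leaving out arrays. The fit was tested on simulated data. The simulated arrays held no effect of experiment, so that check does not bear on the choice between the fits with and without a block. Per the methods, sides with the same number came from the same embryos and replicates from independent experiments, and same-numbered arrays deviated together in all 6 pairs of groups (correlations 0.48 to 0.80). The number of arrays limits the precision.

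The members and gene lists were chosen with earlier results of these data known. Genes were named by rule: both agr2 probe sets, every measured cement gland gene, the highest and lowest tested gene of each other list in double morphants where none was called, the 10 genes most correlated with agr2, and measured neighbours, which were added later. The entry nrp1 was left out because the symbol names neuropilin. Sequences and the planned promoter motif search were not used here.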

Additional observations from a re-analysis of the deposited data

Results flagged for a closer look

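otx1.L was picked out because the sides of double morphants and of control morphants differed in opposite directions in every pair. The log2 differences between injected and uninjected sides were 0.00102 and 0.349 in double morphants and -0.616 and -0.00122 in control morphants in replicates 1 and 2. The difference between the effects was 0.48 (standard error 0.30, adjusted p = 0.871 in limma), and a pair in each kind of embryo lay close to 0.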

How the results depend on the processing

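Several alternatives left the agr2 differences between sides unchanged, so they could not test the direction. These were 1 probe set per gene, no filter, a variance trend, a floor, both blocks and the local fdr. Quantile scaling, median scaling and leaving out an array could move the differences. Under these, both copies stayed lower on the injected sides in double and in control morphants. The double morphant contrast is the one that picked the copies. Without 1 array, agr2.L ranged from -3.05 to -2.41 and agr2.S from -4.05 to -2.94 in double morphants, and from -1.21 to -0.29 and from -0.86 to -0.28 in control morphants. The effect in double minus control morphants ranged from -2.45 to -1.52 and from -3.48 to -2.37, that between the injected sides from -1.68 to -0.76 and from -2.58 to -1.47, and that between the uninjected sides from 0.43 to 1.11 and from 0.61 to 1.19. Between the experiments agr2.S turned from 0.03 to -0.33 without either injected array of double morphants and reached 0.23 without a control array.

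The replicate block left the control difference uncalled for agr2.L (adjusted p = 0.414 by experiment, 0.264 by pairs of sides) and for agr2.S (0.544 and 0.400), while the local fdr called that of agr2.L, -0.75. Calls in double morphants went from 0 to 125 without the filter, 4 with the trend, 2200 with the block by experiment, 2757 by pairs and 207 by local fdr. Calls between the injected sides went from 49 to 248, 12 (quantile), 24 (median), 16 (trend), 1504 (experiment) and 1354 (local fdr), and to 0 without any 1 array. Local fdr gave 970 calls in control morphants, 583 for the difference of effects, 578 between the uninjected sides and 384 between experiments (3087 before; 1189 to 2823 without 1 array). In control morphants, leaving out arrays turned 1 crx.L probe set to 0.34 and 0.10 (range -0.65 to 0.34), the other to -0.28 and -0.30 (range -0.30 to 0.60) and crx.S to 0.43 and 0.22 (range -0.51 to 0.43), and in double morphants otx1.L to -0.026 (range -0.026 to 0.38). Causes were not tested. With 2 arrays per group, precision is limited by their number.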
